A study of Homo sapiens with 24 samples.

Results

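Transcript levels of 33 genes of the Fanconi pathway, homologous recombination and the damage checkpoints were examined in 3 T-cell lines exposed to a hypomethylating agent. The genes were taken by symbol from a fixed list, and all 33 were found among the 25559 genes counted in every library. They comprise 8 genes of the Fanconi core complex (FANCA, FANCB, FANCC, FANCE, FANCF, FANCG, FANCL and FANCM), the 2 genes of the FANCI-FANCD2 complex, 7 genes of homologous recombination (BRCA1, BRCA2, PALB2, RAD51AP1, BRIP1, XRCC2 and XRCC3), 5 genes of checkpoint signaling (ATM, ATR, CHEK1, CHEK2 and TOPBP1), 6 genes of end resection and helicase activity (RBBP8, BLM, EXO1, MRE11A, NBN and RAD50), the break mediators TP53BP1 and MDC1, and 3 genes acting at nicks (XRCC1, PARP1 and PARP2). MRE11A is the older symbol of MRE11.

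The Fanconi pathway repairs crosslinks between the strands of DNA. Its core complex attaches ubiquitin to FANCD2 and FANCI at a stalled replication fork, and the marked pair then directs the opening of the crosslink and its repair by homologous recombination. ATM and ATR are the kinases that sense broken ends and single-stranded DNA, and they pass the signal on to CHEK2 and CHEK1. AZA and decitabine are cytidine analogs that enter DNA (AZA largely enters RNA) and trap the DNA methyltransferases, which lowers methylation and leaves protein adducts on the DNA.

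HH cells derive from a cutaneous T-cell lymphoma. The PF382 line comes from T-cell acute lymphoblastic leukemia, and TLOm1 from adult T-cell leukemia. Cells were harvested after 96 h with drug added every 24 h, or were left untreated. HH received AZA at 50, 125 or 250 nM, whereas the doses for PF382 and TLOm1 were 125, 250 or 500 nM. Decitabine doses were 5, 12.5 or 25 nM for every line. The 24 libraries fall into an AZA set and a decitabine set of 12 each, and either set holds an untreated library of every line, so that each condition has 1 library. The labels name no vehicle, genotype or separate culture, and p values here measure only the spread between these libraries, which may be technical.

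Library totals, rounded to 6 digits, were 16175100 to 32496700 counts (median 24346100) in the AZA set and 13892500 to 29794000 counts (median 19652100) in the decitabine set. The lowest count of any member was 41 reads, for FANCE in untreated PF382 of the decitabine set, and the median over members and libraries was 1661 reads. Levels are given as normalised CPM, reads scaled to library size with TMM factors. Of 12 T-cell markers 11 were counted, with summed levels of 1139 to 2319 CPM, while those of 5 B-cell markers came to 0.526 to 22.8 CPM and those of 5 myeloid markers to 0.309 to 5.20 CPM. CD3D was near 0 in untreated TLOm1 (0.777 and 0.0478 CPM) and LCK was at 0 to 1.42 CPM in untreated HH and TLOm1, whereas CD3E and ZAP70 were detected in every line. The epithelial markers ranged from 0.165 to 164 CPM and were highest in TLOm1. The fibroblast markers were at 27.6 CPM in TLOm1 at 5 nM decitabine and at 0.302 to 7.62 CPM in the other 23 libraries, of which those of PF382 were the highest.

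The sequences upstream of 4 members are shown because the drugs act on methylation of CpG sites. FANCD2 and ATR had the smallest adjusted p in the AZA dose trend, and FANCE and CHEK2 were added after their values had been seen. Each run is the 250 bases before the annotated start in RefSeq (build GRCh38.p14), 5′ to 3′ on the strand of the gene, with every CpG in capitals. FANCD2 lies at chr3:10026187-10026436 on the plus strand, ATR at chr3:142578734-142578983 on the minus strand, FANCE at chr6:35452088-35452337 on the plus strand and CHEK2 at chr22:28741821-28742070 on the minus strand.
FANCD2: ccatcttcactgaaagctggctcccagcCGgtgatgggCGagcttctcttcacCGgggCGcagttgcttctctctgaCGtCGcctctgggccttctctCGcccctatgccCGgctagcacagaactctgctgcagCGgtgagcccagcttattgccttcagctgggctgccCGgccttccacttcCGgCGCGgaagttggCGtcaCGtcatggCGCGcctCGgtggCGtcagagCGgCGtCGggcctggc
ATR: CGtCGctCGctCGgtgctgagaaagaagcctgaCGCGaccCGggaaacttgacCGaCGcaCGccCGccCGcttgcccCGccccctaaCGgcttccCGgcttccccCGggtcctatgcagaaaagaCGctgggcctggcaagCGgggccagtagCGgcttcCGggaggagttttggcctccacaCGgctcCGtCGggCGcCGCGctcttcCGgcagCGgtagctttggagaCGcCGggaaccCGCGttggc
FANCE: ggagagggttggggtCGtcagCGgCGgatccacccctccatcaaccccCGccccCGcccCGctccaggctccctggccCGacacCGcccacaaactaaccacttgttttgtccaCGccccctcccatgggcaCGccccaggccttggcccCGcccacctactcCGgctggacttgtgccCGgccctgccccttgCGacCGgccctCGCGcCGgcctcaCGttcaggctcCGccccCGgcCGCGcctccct
CHEK2: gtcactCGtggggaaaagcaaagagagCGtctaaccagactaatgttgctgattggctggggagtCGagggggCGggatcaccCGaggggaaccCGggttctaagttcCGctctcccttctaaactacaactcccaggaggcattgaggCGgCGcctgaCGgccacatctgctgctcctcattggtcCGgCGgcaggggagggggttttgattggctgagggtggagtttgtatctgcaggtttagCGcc

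These windows held 22 CpG in FANCD2, 32 in ATR, 23 in FANCE and 13 in CHEK2. An entry was found for 31 members, and FANCI and NBN had none. The CpG observed to expected ratio was at least 0.6 in 31 of 31 member windows, with a median of 0.879, against 47.5% of 35114 windows of all genes, with a median of 0.558. On either strand, the CCAAT box (CCAAT) was present in 15 of 31 member windows (48.4%, against 32.0% of all windows), the E2F motif (TTTNNCGC) in 3 (9.68%, against 5.92%) and the CHR motif of cell cycle genes (TTTGAA) in 5 (16.1%, against 13.3%). Overlapping matches were counted. CHEK2 held 3 CCAAT matches and 1 E2F match, while FANCD2, ATR and FANCE held none of these motifs. The methylation of these windows was not measured.

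Before drug, the members stood at different levels in the 3 lines. In the 6 untreated libraries, 2 of each line, 31 of 33 members differed between lines (edgeR quasi-likelihood F test with 2 degrees of freedom, library set as covariate, Benjamini-Hochberg adjusted p under 0.05), against 82.9% of all 15501 genes tested, so a share near that of the members was seen over all genes. BRCA1 and PARP2 did not pass. The highest level was in PF382 for 18 members, in TLOm1 for 8 and in HH for 7, and the lowest was in HH for 16, in TLOm1 for 11 and in PF382 for 6. Both steps of that order passed the threshold for 16 of 33 members. For the other 17, at least 1 pair of neighbouring lines did not differ beyond the spread. The order of lines and its steps were not counted over all genes, so these counts have no background share.

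Between pairs of lines, 18 members were higher and 7 lower in PF382 than in HH, where 34.4% of all genes were higher and 32% lower. In TLOm1 against HH 14 members were higher and 11 lower (28.1% and 27.6% of all genes). In TLOm1 against PF382 7 members were higher and 17 lower (33.3% and 33.9%). The median log2 difference of the 33 members was 0.42 for PF382 against HH, 0.042 for TLOm1 against HH and -0.45 for TLOm1 against PF382, beside 0.032, 0.011 and -0.013 over all genes.

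**Figure D1:**
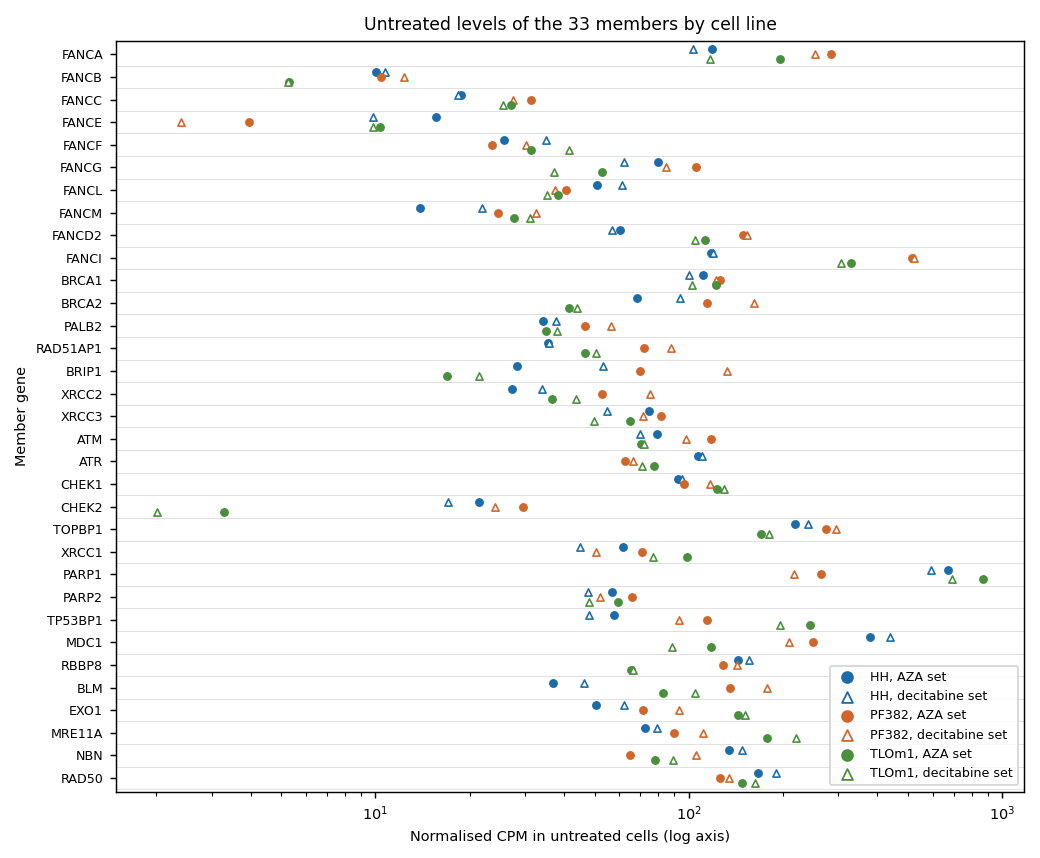
Normalised CPM (log axis) of the 33 members in untreated cells, with 1 point for each of the 2 libraries of a line (filled circles for the AZA set, open triangles for the decitabine set) and genes ordered by role. CHEK2 stands far lower in TLOm1 and FANCE lower in PF382 than in the other lines, and FANCI is highest in PF382.

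FANCI, the partner of FANCD2, showed the smallest adjusted p. It stood at 118 and 119 CPM in HH, 517 and 521 CPM in PF382 and 329 and 306 CPM in TLOm1, so that the lines did not overlap (adjusted p = 4.05e-08, edgeR). The log2 difference of PF382 from HH was 2.16 (SE 0.11). FANCD2 followed the same order of lines, with 60.3 and 57.0 CPM in HH, 149 and 153 CPM in PF382 and 112 and 105 CPM in TLOm1. POLG overlaps FANCI on the opposite strand in GENCODE v29, and TUBGCP4 overlaps TP53BP1 and ANKRD49 overlaps MRE11A in the same way, and whether the counting used strand is not given in the sources used here.

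TP53BP1, which shields broken ends from resection, was lowest in HH (57.8 and 48.0 CPM), intermediate in PF382 (115 and 93.1 CPM) and highest in TLOm1 (243 and 195 CPM). Its log2 difference of TLOm1 from HH was 2.05 (SE 0.11, edgeR adjusted p = 6.02e-08). MRE11A, the nuclease of the MRE11-RAD50-NBN complex, was likewise highest in TLOm1 (177 and 220 CPM), beside 72.4 and 79.2 CPM in HH and 89.7 and 111 CPM in PF382. The remaining subunits of that complex were ordered otherwise, with NBN and RAD50 highest in HH, at 134 and 148 CPM and at 166 and 190 CPM, although RAD50 did not differ beyond the spread between HH and TLOm1 (edgeR adjusted p = 0.135).

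BLM, a helicase that unwinds recombination intermediates, was lowest in HH (36.8 and 46.3 CPM) and highest in PF382 (136 and 177 CPM), with 82.5 and 104 CPM in TLOm1. BRIP1, a helicase that binds BRCA1, stood at 28.3 and 53.2 CPM in HH, 69.7 and 133 CPM in PF382 and 17 and 21.5 CPM in TLOm1. BRCA2, a central factor of homologous recombination, was lowest in TLOm1 as well (41.5 and 43.9 CPM), with 68.4 and 93.4 CPM in HH and 114 and 162 CPM in PF382. For BRIP1 and BRCA2 the lines did not overlap, although the libraries of a line lay apart by set.

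PARP1, the main sensor of nicked DNA, was lowest in PF382, at 264 and 216 CPM, beside 673 and 594 CPM in HH and 869 and 692 CPM in TLOm1. CHEK2, the effector kinase of ATM, was detected at 3.28 and 2.01 CPM in TLOm1 (76 and 42 reads), against 21.3 and 17 CPM in HH and 29.6 and 24.0 CPM in PF382. The log2 difference of TLOm1 from PF382 was -3.38 (SE 0.21, edgeR adjusted p = 1.16e-07). FANCE, which bridges the core complex to FANCD2, stood at 3.94 and 2.39 CPM in PF382 (96 and 41 reads), 15.6 and 9.79 CPM in HH and 10.4 and 9.80 CPM in TLOm1.

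The untreated libraries of a line also differed between the sets. In the decitabine set 4 members were higher, BRIP1 (log2 difference 0.75, SE 0.13, adjusted p = 0.0111), BLM (0.37, SE 0.088), FANCF (0.42, SE 0.11) and XRCC2 (0.37, SE 0.11), against 5.59% of all genes (edgeR, cell line as block). XRCC1 (-0.42, SE 0.094) and FANCG (-0.38, SE 0.094) were lower, against 5.03% of all genes. The labels do not say what else separates the sets. The median absolute log2 difference of the 33 members between the untreated libraries of a line was 0.20 in HH, 0.29 in PF382 and 0.17 in TLOm1.

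In the AZA dose trend FANCE was called upward and FANCD2, ATR, RAD50, FANCM and PARP2 downward, each with a small change per step. The dose trend was fitted over the 12 libraries of the set with the cell line as block and the dose rank (0 for untreated, then 1 to 3) as a number, and a slope is a log2 change per dose step. FANCE was the 1 member past the threshold in the upward direction, where 12% of 16107 genes were called, and the other 5 were the members called in the downward direction, where 9.39% of all genes were. The share of members called downward, 5 of 33, was thus not far from the background. The slope was below 0 for 23 members, with a median of -0.031 beside 0.0068 over all genes.

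FANCD2, the ubiquitinated subunit of the FANCI-FANCD2 pair, was at 149 CPM in untreated PF382 and at 132, 122 and 97.9 CPM at 125, 250 and 500 nM. In TLOm1 it went from 112 CPM to 105, 90.3 and 66.9 CPM at the same doses. In HH it was 60.3 CPM untreated and 56.2, 61.7 and 51.7 CPM at 50, 125 and 250 nM. The level was lower at every step in PF382 and TLOm1, and in HH 1 treated library lay above the untreated one. The slope was -0.16 per dose step (SE 0.032, edgeR adjusted p = 0.00461), and it was -0.13 with an adjusted p of 0.0547 without TLOm1.

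ATR, the kinase of replication stress, was at 107 CPM in untreated HH and at 106, 99.0 and 92.2 CPM with rising dose. It was 62.7, 61.6, 58.5 and 52.9 CPM in PF382 and 77.6, 74.0, 66.9 and 62.4 CPM in TLOm1. ATR was lower at every dose step in all 3 lines. It was the 1 member below the untreated library of its line in the AZA set in all 9 treated libraries, which held for 5.98% of all genes. Its slope was -0.086 (SE 0.017, edgeR adjusted p = 0.00511), and it stayed past the threshold without any 1 treated library or line.

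RAD50, the long coiled-coil subunit of the MRE11 complex, fell in HH from 166 CPM to 157, 144 and 119 CPM and in PF382 from 125 CPM to 120, 116 and 99.6 CPM. In TLOm1 it was 148 CPM untreated and 149, 140 and 145 CPM treated, which overlapped. The slope was -0.090 (SE 0.025, edgeR adjusted p = 0.0259). It was -0.065 (adjusted p = 0.0828) without the HH library at 250 nM, -0.079 (0.0773) without the PF382 library at 500 nM, -0.055 (0.235) without HH and -0.085 (0.106) without PF382.

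FANCM, the translocase that anchors the core complex on DNA, was 13.9 CPM in untreated HH and 15.8, 15 and 12.8 CPM after AZA. It was 24.6, 25.7, 22.2 and 18.9 CPM in PF382 and 27.6, 24.4, 19.6 and 19.8 CPM in TLOm1, with the widest step in TLOm1 (slope over all lines -0.12, SE 0.035, edgeR adjusted p = 0.0324). PARP2, a second sensor of nicks, was 56.8, 60.7, 53.8 and 42.7 CPM in HH, 65.6, 66.7, 70.8 and 61.7 CPM in PF382 and 59.6, 58.3, 51.2 and 43.7 CPM in TLOm1 (slope -0.10, SE 0.032, edgeR adjusted p = 0.0414). For both genes the highest dose lay below the untreated library in every line. FANCM kept its call in 3 and PARP2 in 2 of the 12 fits that left out 1 treated library or 1 line.

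**Figure D2:**
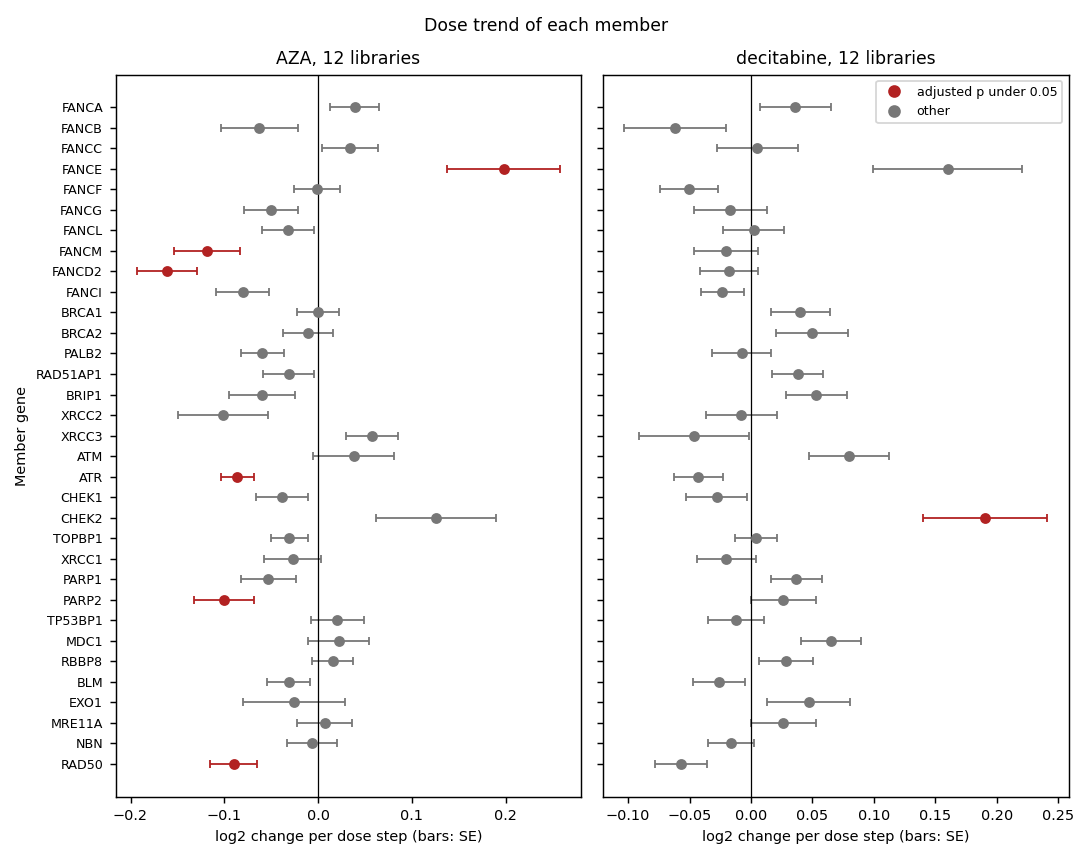
Slope on dose rank of each member (log2 change per dose step, bars SE) after AZA and after decitabine, 12 libraries each, with red for adjusted p under 0.05. After AZA most points lie left of 0 with FANCD2 lowest, and after decitabine CHEK2 alone is red.

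FANCE moved the other way. In PF382 it stood at 3.94 CPM untreated and at 7.80, 7.36 and 9.65 CPM after AZA, in HH at 15.6 CPM and then 19.7, 18.6 and 20.6 CPM, and in TLOm1 at 10.4 CPM and then 14.2, 15.3 and 13.9 CPM. All 9 treated libraries lay above the untreated library of their line, which held for 7.31% of all genes. The slope was 0.20 per dose step (SE 0.060, edgeR adjusted p = 0.0353), and within PF382 alone 0.36 (SE 0.091, adjusted p = 0.0235). The call was lost without PF382 at 250 nM (0.20, adjusted p = 0.0506), PF382 at 500 nM (0.17, 0.0991), TLOm1 at 250 nM (0.19, 0.0573), the whole of PF382 (0.12, 0.114) or the whole of TLOm1 (0.22, 0.0768).

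With the 9 treated libraries set against the 3 untreated ones, 0 members passed in either direction, where 0.857% of all genes were higher and 0.317% lower. At an unadjusted p under 0.05 there were 2 higher and 1 lower, beside 2002 and 1375 of all 16107 genes. DESeq2 and limma voom each called 1 member higher and 0 lower. With both untreated libraries of each line as controls, FANCE, CHEK2, FANCA and XRCC3 were called higher (12.6% of all genes in that fit) and BRIP1, FANCM and RAD50 lower (7.7%). The added controls belong to the decitabine set, and this fit had no term for the set. In the untreated libraries of the decitabine set BRIP1 (log2 difference 0.75), FANCM (0.41) and RAD50 (0.16) were higher than in the AZA set. FANCE (-0.46), CHEK2 (-0.39), FANCA (-0.36) and XRCC3 (-0.33) were lower there, and of all these BRIP1 alone passed the threshold. The part of the set difference in the calls was not tested. With the controls of the AZA set alone FANCE was nearest, with a log2 fold change of 0.60 (SE 0.14, edgeR adjusted p = 0.0664).

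Among the 9 treated libraries alone, the slope was taken per 2-fold step of the AZA dose. Upward, 0 members were called (7.55% of 15932 genes), with 0 by DESeq2 or limma voom. An unadjusted p under 0.05 was reached upward by 0 members and by 2522 of all genes. Downward, 6 members were called (6.17%). These were ATR (-0.10, SE 0.024, edgeR adjusted p = 0.0252), PARP2 (-0.16, SE 0.040), FANCM (-0.16, SE 0.042), FANCD2 (-0.18, SE 0.048), FANCI (-0.12, SE 0.032) and XRCC2 (-0.18, SE 0.051), a homologous recombination gene. The median slope of the members was -0.067, beside 0.0088 over all genes. The count was 0 without the HH library at 250 nM or the TLOm1 library at 125 nM, 1 without PF382 at 250 nM or without TLOm1, 2 without HH or without PF382, and 3 without HH at 125 nM, PF382 at 125 or 500 nM, or TLOm1 at 250 nM. Shares of all genes called in those fits are not given here.

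Of the 9 AZA libraries, TLOm1 at 500 nM had the lowest median over the members, and a difference between lines in that median was not tested. In TLOm1, at 125 nM 12 of 33 members lay below the untreated library of the line, at 250 nM 22 and at 500 nM 26, where the median log2 difference was -0.21 and the lowest was that of XRCC2 at -0.83. In PF382 14, 14 and 21 members lay below at the same doses, with medians of 0.032, 0.028 and -0.054, and in HH 11, 10 and 19 at 50, 125 and 250 nM, with medians of 0.066, 0.060 and -0.037. Each of these values sets 1 treated library against 1 untreated library, and they were not computed over all genes. Within TLOm1 8 members fell (11.7% of all genes) and 2 rose (14.4%). Within PF382 the counts were 1 and 2 (5.02% lower and 7.14% higher) and within HH 1 and 3 (5.89% and 9.12%). The summed level of 26 proliferation markers moved as well, from 7404 CPM in untreated TLOm1 to 8360, 7743 and 6137 CPM after AZA. In PF382 the sum was 11381 CPM and then 11210, 11347 and 9930 CPM, and in HH 6990 CPM and then 7395, 7603 and 7482 CPM. Its part in the result was not tested.

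**Figure D3:**
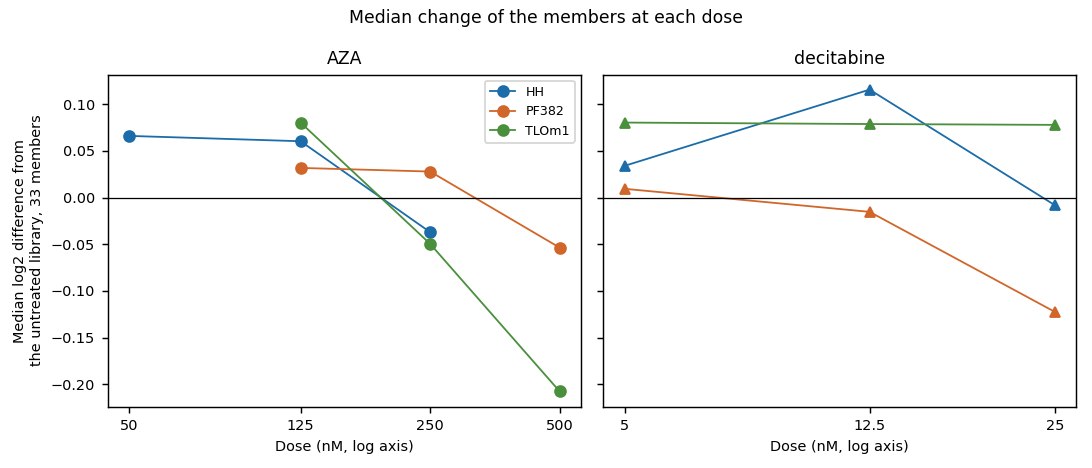
Median log2 difference of the 33 members from the untreated library of their line and set, against the dose in nM (log axis), for AZA and decitabine. With AZA the TLOm1 median drops to -0.21 at 500 nM, and with decitabine it is 0.080, 0.079 and 0.078 at the 3 doses.

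After decitabine CHEK2 rose with dose, and the other 32 members did not pass the test. The upward count of 1 of 33 stood beside 8.6% of 15892 genes, and the downward count of 0 beside 5.38%. At an unadjusted p under 0.05 there were 4 higher and 1 lower, beside 2769 and 1928 of all 15892 genes. DESeq2 and limma voom each called 1 higher and 0 lower. The median slope of the members was 0.0024, beside 0.012 over all genes. Treated against untreated libraries gave 0 members in either direction, as it gave 0% of all genes by edgeR. By unadjusted p under 0.05, 5 members were higher and 0 lower in that test, beside 1518 and 974 of all 15892 genes. DESeq2 and limma voom called 0 members there. With both untreated libraries of each line as controls, BRCA2, EXO1 and RAD51AP1 were called higher (6.36% of all genes in that fit) and 0 members lower (6.25%). That fit had no term for the set. Untreated BRCA2 (log2 difference 0.36), EXO1 (0.26) and RAD51AP1 (0.16) were higher in the decitabine set than in the AZA set, short of the threshold. The part of this in the calls was not tested. The slope among the 9 treated libraries called 0 members, against 2.18% of all genes higher and 0.791% lower. By unadjusted p under 0.05, 1 member was higher and 1 lower, beside 1720 and 1136 of all 15677 genes. DESeq2 and limma voom called 0 members for this slope.

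In TLOm1, CHEK2 was 2.01 CPM untreated (42 reads) and 3.37, 4.50 and 4.40 CPM at 5, 12.5 and 25 nM decitabine. In HH it was 17 CPM and then 17.4, 21.6 and 25.6 CPM, and in PF382 24.0 CPM and then 26.8, 31.5 and 26.1 CPM. All 9 treated libraries lay above the untreated library of their line in the decitabine set. This also held for FANCE and RAD51AP1, 3 members in all, and for 5.33% of all genes. Against the untreated libraries of the AZA set it did not hold for CHEK2 in HH and PF382 or for FANCE in HH and TLOm1. No member (0) lay below in all 9, which held for 4.51% of all genes. The CHEK2 slope was 0.19 per dose step (SE 0.051, edgeR adjusted p = 0.0234). It was 0.18 (adjusted p = 0.0760) without HH at 25 nM, 0.17 (0.183) without HH, 0.14 (0.0656) without TLOm1 and 0.13 (0.0709) with both untreated libraries of each line as controls.

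In the AZA set CHEK2 in TLOm1 was 3.28 CPM untreated and 5.73, 5.96 and 7.42 CPM after AZA, and in HH 21.3 CPM and then 26.0, 29.4 and 31.0 CPM. In PF382, where it was highest before drug, it was 29.6 CPM and then 31.1, 30.7 and 23.7 CPM. The slope over the lines was 0.13 (SE 0.064, edgeR adjusted p = 0.183). The slopes differed between lines (2 degrees of freedom, adjusted p = 0.0177), with 0.35 (SE 0.076) in TLOm1, 0.18 (SE 0.059) in HH and -0.095 (SE 0.059) in PF382, of which that of TLOm1 passed the threshold. Without PF382 at 500 nM the difference had an adjusted p of 0.143. HSCB overlaps CHEK2 on the opposite strand, and its slope in TLOm1 was -0.32 after AZA (adjusted p = 0.00465) and -0.085 after decitabine (adjusted p = 0.545). CHEK2 also has 4 named pseudogene copies in GENCODE v29, so its level is uncertain to the extent that reads were shared. Named copies are listed there for FANCD2, RAD51AP1, PARP1, RBBP8 and MRE11A as well, with the same limit.

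FANCE had the same direction after decitabine, without passing the test over the lines (slope 0.16, SE 0.061, edgeR adjusted p = 0.0925). It was 2.39 CPM in untreated PF382 and 4.37, 4.92 and 5.46 CPM with rising dose, 9.79 CPM in HH and then 12.1, 12 and 14.6 CPM, and 9.80 CPM in TLOm1 and then 11.7, 11.7 and 9.84 CPM. Within PF382 the slope was 0.36 (SE 0.098, adjusted p = 0.00790). The difference between lines did not pass with either drug (adjusted p = 0.307 for AZA and 0.108 for decitabine).

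**Figure D4:**
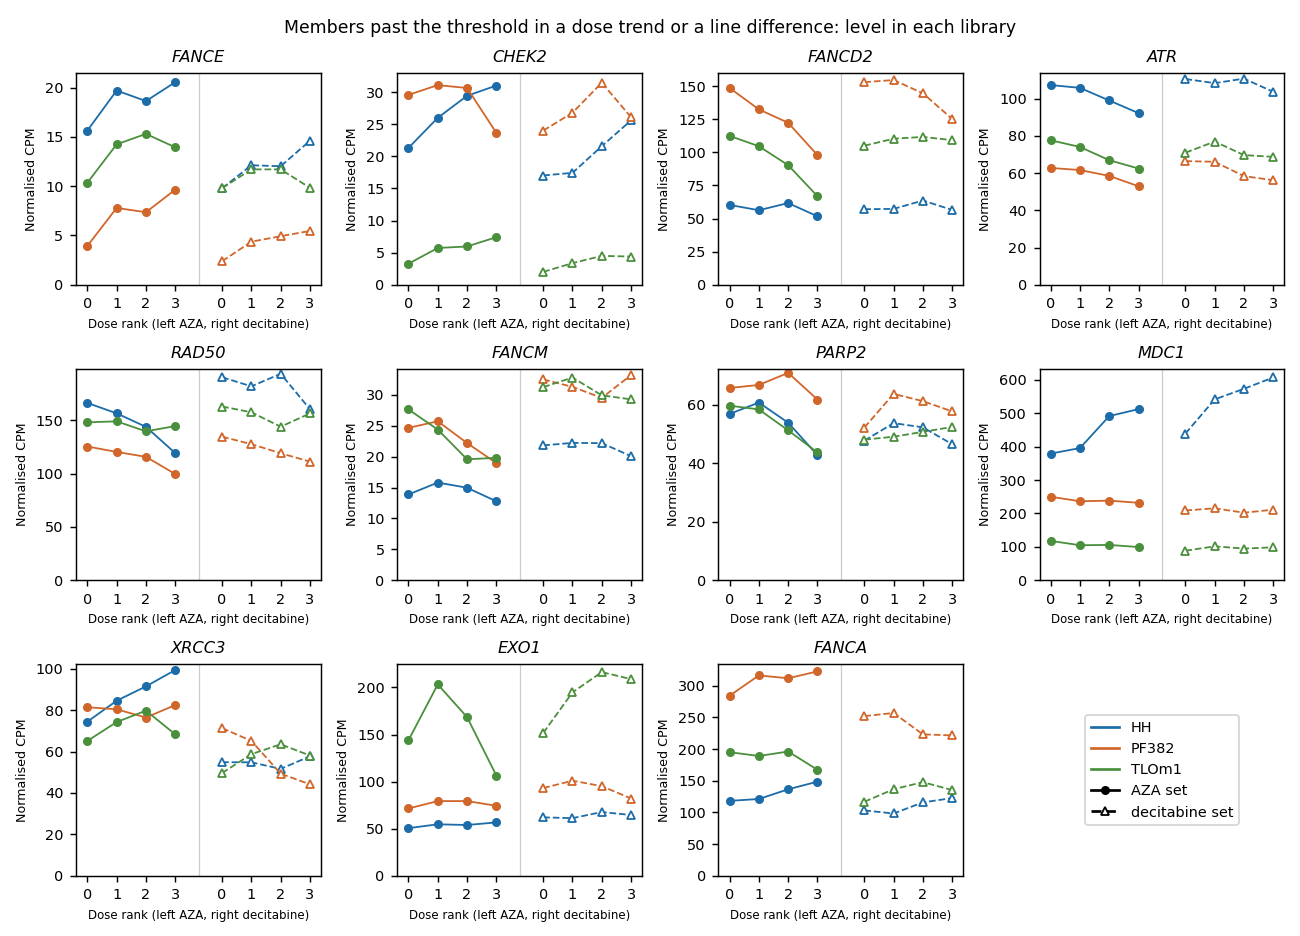
Normalised CPM of 11 members in each of the 24 libraries against dose rank (0 untreated), with AZA on the left and decitabine on the right of each panel. CHEK2 in TLOm1 and FANCE in PF382 start lowest and lie higher at each dose of either drug, and ATR declines with AZA in each line.

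Slopes that differed between lines were found for 2 members with AZA (13.6% of all genes) and for 3 with decitabine (17.5%), fewer than the background share in both. With AZA these were CHEK2 and MDC1, the scaffold that binds marked chromatin at breaks. MDC1 was 379 CPM in untreated HH and 395, 491 and 512 CPM after AZA, while it was 250, 236, 238 and 232 CPM in PF382 and 118, 105, 106 and 99.5 CPM in TLOm1. The slope in HH was 0.16 (SE 0.031) and the edgeR adjusted p of the difference was 0.00986, or 0.0541 without HH at 250 nM. At each dose rank HH received less AZA than PF382 and TLOm1. A difference of its AZA slope from theirs therefore cannot be told apart from the dose range. With decitabine MDC1 was 439 CPM in untreated HH and then 541, 573 and 607 CPM, with a slope of 0.15 (SE 0.031, adjusted p = 0.00194) in HH, and the difference between lines had an adjusted p of 0.0560.

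XRCC3, which acts in homologous recombination, had the smallest adjusted p of a line difference after decitabine. In PF382 it fell from 71.3 CPM to 65.1, 49.3 and 44.2 CPM, a slope of -0.24 (SE 0.041). In HH it was 54.9, 54.8, 51.6 and 57.7 CPM and in TLOm1 49.6, 58.7, 63.5 and 58.1 CPM, and the difference had an edgeR adjusted p of 0.000749 that stayed under 0.05 in every fit without 1 treated library. After AZA it was 74.4, 84.5, 91.5 and 99.4 CPM in HH, 81.4, 80.4, 76.4 and 82.4 CPM in PF382 and 65.1, 74.2, 79.7 and 68.3 CPM in TLOm1. KLC1 overlaps XRCC3 on the opposite strand, and its slope in PF382 after decitabine was 0.031 (adjusted p = 0.519).

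EXO1, an exonuclease of resection, rose in TLOm1 after decitabine, from 152 CPM to 195, 216 and 209 CPM (slope 0.16, SE 0.038, edgeR adjusted p = 0.0106). It was 62.1, 61.2, 67.7 and 64.6 CPM in HH and 93.2, 101, 95.2 and 82.1 CPM in PF382, and the slopes differed with an adjusted p of 0.0257, or 0.218 without PF382 at 25 nM. After AZA EXO1 in TLOm1 was 144 CPM untreated and 203, 168 and 106 CPM, highest at the low dose and lowest at the high dose. FANCA, a subunit of the core complex, was 252, 257, 223 and 222 CPM in PF382, 103, 98.4, 116 and 123 CPM in HH and 117, 137, 148 and 135 CPM in TLOm1 with decitabine (adjusted p of the difference 0.0369), and that call was lost in 6 of 9 fits without 1 treated library, with an adjusted p of 0.0532 to 0.191 in those. ZNF276 overlaps FANCA on the opposite strand, and its slopes differed between lines as well (adjusted p = 0.0125), with -0.14 in PF382.

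**Figure D5:**
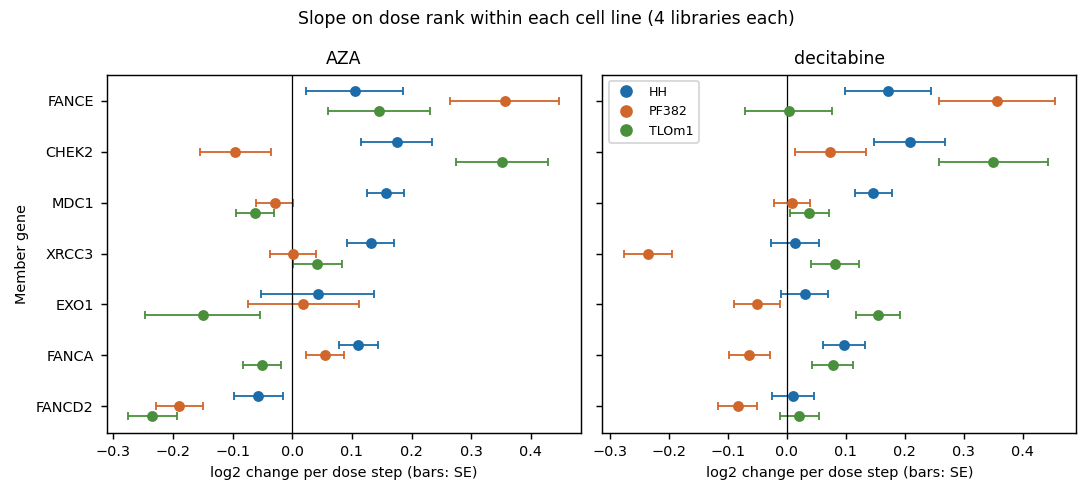
Slope on dose rank within each line (log2 change per dose step, bars SE, 4 libraries per line) for 7 members after AZA and decitabine. The TLOm1 slopes of CHEK2 (0.35 with either drug) and the PF382 slopes of FANCE (0.36 with either drug) lie farthest to the right, and XRCC3 in PF382 is at -0.24 with decitabine.

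Within single lines after decitabine 3 members rose in HH (MDC1, CHEK2 and BRIP1, against 7.3% of all genes) and 0 fell by edgeR (4.2%, with 0 at an unadjusted p under 0.05). In PF382 FANCE rose (17.1% of all genes were higher) and XRCC3 fell (10.4% were lower), and in TLOm1 EXO1 and CHEK2 rose (5.53%) and 0 members fell by edgeR (2.34%, with 1 at an unadjusted p under 0.05). In HH 21, 26 and 16 of 33 members lay above the untreated library of the set at 5, 12.5 and 25 nM, in PF382 18, 13 and 10 and in TLOm1 25, 22 and 23. Counts at single doses were not taken over all genes.

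Of the 7 homologous recombination genes 6 had a slope below 0 with AZA, from -0.10 for XRCC2 to 0.058 for XRCC3, and 3 with decitabine, from -0.046 to 0.053. The 6 resection and helicase genes ranged from -0.090 (RAD50) to 0.016 (RBBP8) with AZA and from -0.057 to 0.047 with decitabine. Apart from FANCE and FANCM the core complex genes lay between -0.063 and 0.039 with AZA. The 3 nick repair genes had slopes of -0.10 to -0.027 with AZA and -0.020 to 0.037 with decitabine. The mediators TP53BP1 and MDC1 were at 0.020 and 0.022 with AZA.

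Of 64 other repair genes, 6 rose and 10 fell in the AZA dose trend, where 12% of all genes were called higher and 9.39% lower. The lowest adjusted p were those of SHFM1 (-0.15, SE 0.024, edgeR adjusted p = 0.00114), a small partner of BRCA2, BRCC3 (-0.18, SE 0.027), a deubiquitinase of the BRCA1-A complex, TOP3A (0.11, SE 0.019), the topoisomerase that works with BLM, MUS81 (0.16, SE 0.030), a nuclease of crosslink repair, XRCC6 (-0.091, SE 0.018), the Ku70 end-joining factor, and ERCC1 (0.093, SE 0.020), a nuclease partner of crosslink unhooking. After decitabine 2 of the 64 rose, RNF168 (0.097, SE 0.023) and RPA1 (0.072, SE 0.023), and SHFM1 fell (-0.072, SE 0.019). Of all genes 8.6% were called higher and 5.38% lower in that trend. The same shares of all genes stand beside the counts of proliferation markers and p53 targets. Of 26 proliferation markers 4 fell with AZA and 0 rose (0 upward at an unadjusted p under 0.05), namely BUB1B (-0.14, SE 0.020), CCNA2 (-0.15, SE 0.026), AURKA (-0.14, SE 0.036) and CCNB2 (-0.10, SE 0.033), and 3 rose with decitabine, CCNE1 (0.15, SE 0.028), TOP2A (0.085, SE 0.018) and CCNE2 (0.099, SE 0.031). Of 19 p53 targets tested 2 rose with AZA, PHLDA3 (0.42, SE 0.10) and TP53I3 (0.37, SE 0.091), FAS fell (-0.19, SE 0.030), and 0 passed with decitabine (5 higher and 2 lower at an unadjusted p under 0.05).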

How the data were processed

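Per the labels, stranded Illumina libraries were made from RNA of 3 cell lines, with the input given as polyA RNA in one field and as ribosome-depleted total RNA in another. The deposited values are raw read counts per gene, 1 file per library. STAR, limma, DESeq2 and build GRCh37.p2 appear in the processing notes of the submitters. Which counter was used, with which strand setting, is not given in the sources used here. Samples were grouped by title. The titles of PF382 at 250 nM AZA and at 12.5 nM decitabine read PF82, and their cell line field reads PF382.

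Counts were tested with edgeR 4.0.16 (R 4.3.3): TMM, filterByExpr (minimum count 10, total 15), robust quasi-likelihood F tests, Benjamini-Hochberg over all genes, threshold 0.05. All 33 members passed the filter. SE was |log2 change| divided by the square root of F. DESeq2 1.42.0, limma 3.58.1 (voom), RLE factors, no filter, other controls, summed doses and left-out libraries or lines were alternatives. On simulated counts the tests recovered 54.3% to 90.8% of changed genes, and 4.42% to 15.9% of calls were false, most for the AZA slope among treated libraries. The drug tests were simulated for the AZA set only. Planted changes had a median estimate of 0.294 per dose step in the trend and 0.303 per 2-fold step among treated libraries. These exceed the slopes of the members called over the lines, and recovery of smaller slopes was not simulated.

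Named members were those past a threshold in a drug or line test, up to 12, and the 8 lowest adjusted p of the untreated levels. Of other lists up to 6 genes were named by adjusted p in the dose trend. The members, lists and tests were chosen with earlier results of these data known. Doses of the 2 drugs differ, so they were not compared. Depth was about 13892500 to 32496700 counts per library, and where none was counted the floor of 3 counts equals 0.216 CPM in the smallest library, covering counting error only. Promoters came from RefSeq, overlaps from GENCODE v29.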

Additional observations from a re-analysis of the deposited data

Results flagged for a closer look

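The slope on dose rank differed between the 3 lines for 5 members by the edgeR test of the line by dose terms, and each is listed with its adjusted p. With AZA these were MDC1 (0.00986) and CHEK2 (0.0177). With decitabine they were XRCC3 (0.000749), EXO1 (0.0257) and FANCA (0.0369). MDC1 rose in HH, CHEK2 in TLOm1 with AZA and EXO1 in TLOm1 with decitabine, XRCC3 fell in PF382, and no slope of FANCA passed within a line with decitabine. Each line had 1 library per dose, and within a line the slope rests on 4 libraries. With AZA, a difference of HH from the other lines cannot be told apart from its lower dose at each rank.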

How the results depend on the processing

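Each alternative fit was compared with the reported one. Of the comparisons of member counts, 203 stayed within 1.5 times the reported count and 47 did not. Equal counts, also 0 beside 0, were taken as unchanged, and the cause of the changes was not tested. Called members were compared 1 gene and 1 fit at a time, leaving out the untreated levels between lines. In 209 of those comparisons the call was kept, in 102 it was lost and in 0 it reversed. For AZA, treated against untreated libraries gave 1 member higher by DESeq2 (4.69% of all genes in that fit) and 1 by limma voom (1.66%), and with both untreated libraries of a line as controls 4 higher (12.6%) and 3 lower (7.7%). The AZA dose trend gave 3 higher with those controls (17.3%), and without a block for cell line 0 higher and 0 lower by edgeR, where 20 genes were called in all. Leaving out 1 treated library or line gave 0 to 2 higher and 2 to 4 lower in the AZA dose trend, and 0 to 6 lower in the slope among treated libraries, with 0 without HH at 250 nM or TLOm1 at 125 nM. Shares of all genes in the fits with a library or line left out are not given here, for either drug. The member counts of those fits are therefore not set against a background. Line differences with AZA numbered 5 by DESeq2 (18.7%) and 1 to 4 without 1 treated library. For decitabine, both untreated libraries as controls gave 3 higher against untreated (6.36%) and 0 higher in the dose trend (11.3%), no block gave 0 higher, where 2 genes were called in all, and leaving out gave 0 to 2 higher and 0 to 1 lower. The fits with both untreated libraries as controls had no term for the library set. Line differences with decitabine numbered 1 by limma voom (14.4% of all genes, EXO1 then had an adjusted p of 0.0552 and FANCA of 0.0527) and 1 to 6 without 1 treated library. Between the sets, 7 members were higher (5.54%) and 5 lower (5.64%) with no filter, and 6 lower by DESeq2 (9.8%). No paired analysis by replicate number was possible because the labels give none, and the reported fits block on cell line where lines are combined. With 1 library per dose and line, the tests rest on the spread around a common slope, and FANCE in PF382 and CHEK2 in TLOm1 are the members with the fewest reads (41 and 42 in the untreated decitabine libraries).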
